A study of Cricetulus griseus with 6 samples.

Results

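The genes described here encode the folding machinery of the endoplasmic reticulum (ER): luminal chaperones, their co-chaperones, disulfide isomerases, prolyl isomerases and the enzymes that fold glycoproteins through their sugar chains. The members are a list of 38 gene symbols with these functions, and all 38 were found, each on a single row, among the 27873 entries of the files. All 38 passed the filter for low values. Expression was measured by RNA-Seq in CHO-T cells, a Chinese hamster ovary line that stably expresses mouse T-cadherin from a retroviral insert and was selected with puromycin. The cells were transfected with negative control siRNA (3 libraries) or *Xbp1* siRNA (3 libraries) and harvested after 48 h. Both groups therefore carry the transgene, and a single siRNA sequence against *Xbp1* was used. The methods of the study speak in general of independent experiments, but the labels do not say whether the 3 libraries of a group came from separate cultures. The p-values measure the spread between these libraries.

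Proteins that enter the ER are bound by the Hsp70 chaperone BiP, which works in cycles driven by J-domain co-chaperones and nucleotide exchange factors. Disulfide isomerases form and rearrange their cysteine bonds, prolyl isomerases turn their proline bonds, and glycoproteins pass through the cycle of calnexin and calreticulin. When unfolded proteins accumulate, the sensor IRE1α splices the mRNA of *Xbp1*, and the resulting transcription factor is known to act on many genes of ER folding and degradation. The factor ATF6 is known to share part of these targets. The comparison asked how the folding genes stood when *Xbp1* was silenced without an added ER stressor.

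The silenced gene had 26.0, 26.2 and 28.4 FPKM in the control libraries and 2.18, 2.11 and 1.39 FPKM with *Xbp1* siRNA (FPKM counts fragments per kilobase of transcript, scaled to the number of mapped fragments, and is thus a level per length). The files give no read totals. The steps between low FPKM values, read as single reads, placed the depth of the libraries between 94.0% and 116% of that of control replicate 1. Each value is the most frequent ratio of a library, shared by 335 to 381 of 2090 to 2229 genes compared. This reading assumes scaling to mapped fragments, which was not checked. The 6 columns summed to between 646651 and 666267 FPKM with control siRNA and between 593487 and 600986 FPKM with *Xbp1* siRNA, so the totals of the groups did not overlap. Of 4 fibroblast markers, *Col1a1* and *Col1a2* were listed at 0 in every library, and *Vim* and *Pdgfrb* fell from 377 ± 10.7 to 304 ± 13.2 FPKM and from 4.43 ± 0.243 to 2.79 ± 0.210 FPKM (SD, n = 3 each; limma, adjusted p = 7.38e-04 and 0.00289). The summed level of this list was 373 to 394 FPKM with control siRNA and 299 to 322 FPKM with *Xbp1* siRNA. Of 5 granulosa and stroma markers, 3 were matched: *Fshr* was listed at 0, and *Amh* (2.69 and 2.95 FPKM) and *Star* (0.822 and 1.07 FPKM) did not pass, their sum being 2.99 to 3.96 and 3.15 to 4.76 FPKM. The leukocyte marker *Ptprc* and the endothelial marker *Cdh5* were listed at 0, and *Pecam1* of endothelial cells had 0.175 and 0.0278 FPKM (limma, adjusted p = 0.165). Of 4 epithelial markers, 3 were matched, with a summed level of 1.83 to 2.16 FPKM with control siRNA and 4.59 to 5.79 FPKM with *Xbp1* siRNA. *Epcam* rose from 1.82 to 4.72 FPKM on average (limma, adjusted p = 2.56e-04), *Cdh1* went from 0.131 to 0.434 FPKM (limma, adjusted p = 0.0489) and *Krt18* was listed at 0, and the part of the marker lists in the results was not tested. *Cdh1* missed the threshold without control replicate 2 or 3 (limma, adjusted p = 0.107 and 0.0824) and without *Xbp1* siRNA replicate 1, 2 or 3 (0.0840, 0.10 and 0.145), with a replicate block (0.0727), after quantile normalization (0.0580) and with a pseudocount of 0.01 (0.0711), which moved its log2 fold change from 1.29 to 1.96.

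After *Xbp1* silencing the ER folding genes moved in both directions and by small amounts. At an adjusted p under 0.05 (limma, Benjamini-Hochberg over 14361 genes), 13 of the 38 genes fell, 15 rose and 10 did not pass the test. The median log2 fold change of the 38 was 0.08, against 0.01 over all genes tested, and single genes ranged from −0.95 for *Txndc5* to 0.62 for *Prkcsh*. Among all genes tested, 20.2% were lower and 20.2% higher by the same rule, against 34.2% and 39.5% of the folding genes. The folding genes are abundant. Of all genes with a mean of at least 30 FPKM, 35.6% were lower and 22.3% higher, and of the 27 folding genes at that level 9 fell and 13 rose, or 33.3% and 48.1%. In bulk RNA, fewer cells that express a gene and less of its RNA per cell cannot be told apart.

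None of the 38 genes passed the test together with a change of 2-fold or more, the limit used in the study's methods. By limma 29 of them had an unadjusted p under 0.05, and of these 0 reached 2-fold. Among all genes tested, 5.19% passed both limits. The libraries of the 2 groups did not overlap for 30 of the 38 genes, or 78.9%, against 51.8% of all genes tested. This share was not computed for genes with a mean of at least 30 FPKM. For a single gene, 3 libraries against 3 cannot give a p under 0.10 in an exact permutation test (two-sided). After quantile normalization, which forces the 6 libraries to the same distribution of values, the split moved from 13 lower and 15 higher to 7 lower and 17 higher. Over all genes tested that setting called 18.5% lower and 21.7% higher.

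**Figure D1:**
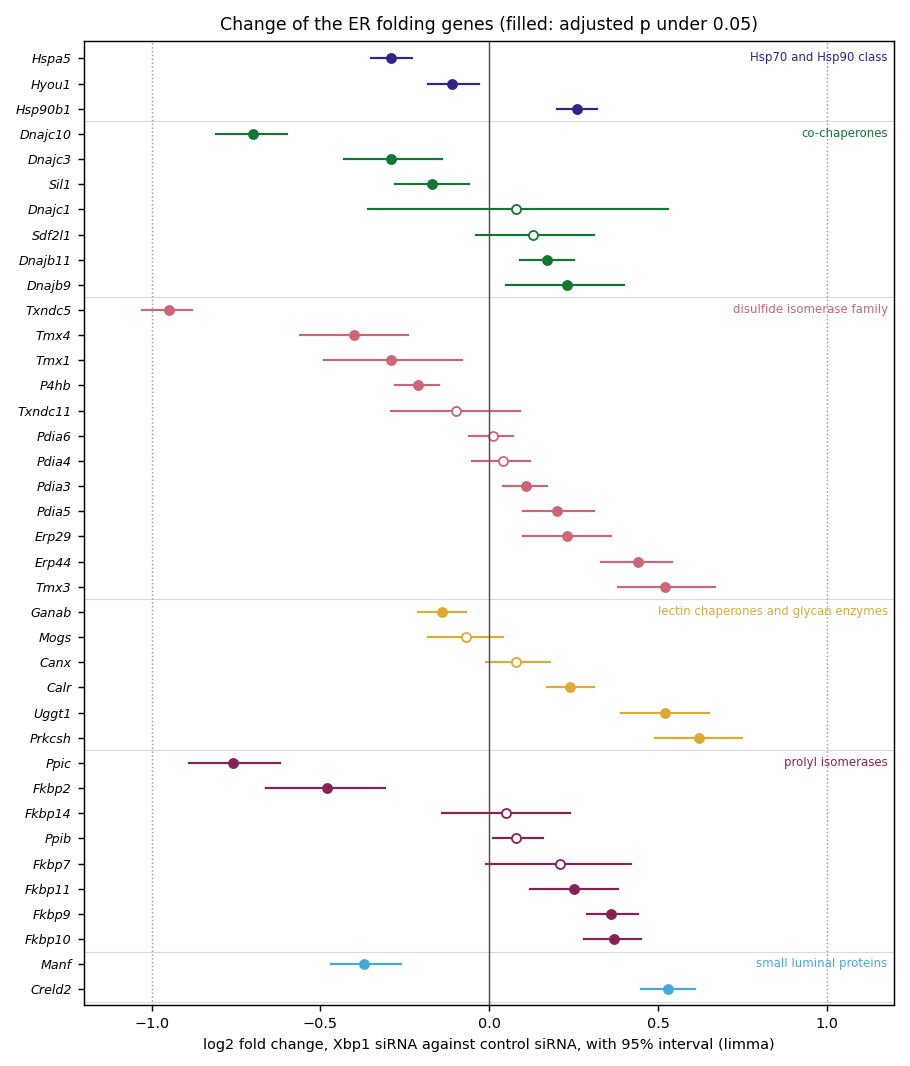
Log2 fold change (x axis) of each of the 38 ER folding genes after Xbp1 siRNA, grouped by role, with 95% intervals from limma over 3 libraries per group; filled points have an adjusted p under 0.05 and dotted lines mark 2-fold. Both directions occur in every group of genes, and no point lies beyond the dotted lines; after quantile normalization the value of Hyou1 changed sign.

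The summed level of the 38 genes was nearly level between the groups. It was 6436, 6353 and 6333 FPKM in the control libraries and 6422, 6377 and 6404 FPKM with *Xbp1* siRNA. These ranges overlapped. As a share of all FPKM in a library, the same sum was 0.972% ± 0.00679 (SD, n = 3) with control siRNA and 1.07% ± 0.00532 (SD, n = 3) with *Xbp1* siRNA, and these shares did not overlap. The make-up of the sum differed. The chaperones of the Hsp70 and Hsp90 class summed to 1858 ± 10.3 FPKM with control siRNA and 1705 ± 6.48 FPKM with *Xbp1* siRNA (SD, n = 3 each), and the disulfide isomerase family to 1550 ± 12.5 and 1455 ± 9.47 FPKM (SD, n = 3 each). The lectin chaperones and glycan enzymes summed to 1183 ± 10.5 and 1357 ± 7.92 FPKM (SD, n = 3 each), and the prolyl isomerases to 1242 ± 30.8 and 1388 ± 15.8 FPKM (SD, n = 3 each). In FPKM the first pair of sums was lower and the second pair higher with *Xbp1* siRNA. As shares of the library total the first pair was not lower, at 0.283% and 0.286% for the Hsp70 and Hsp90 class and 0.236% and 0.244% for the isomerases, while the second pair was higher, at 0.180% and 0.227% and at 0.189% and 0.232%. The co-chaperones summed to 195 ± 3.86 and 188 ± 3.31 FPKM and the small luminal proteins to 345 ± 14.7 and 308 ± 6.55 FPKM (SD, n = 3 each), with shares of 0.0298% and 0.0314% and of 0.0526% and 0.0517%. These sums are led by their most abundant members and were not tested.

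**Figure D2:**
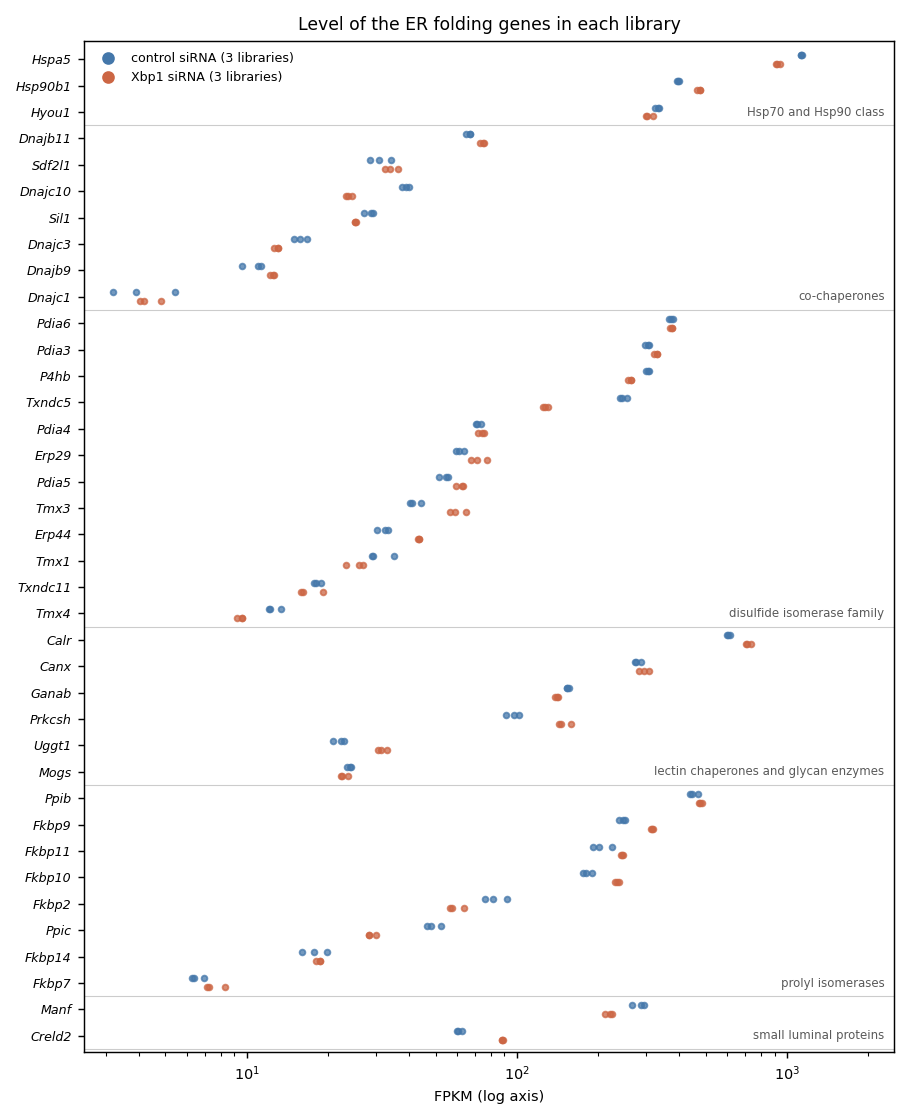
FPKM on a log axis (x) of each ER folding gene in each of the 6 libraries; blue points are the 3 control siRNA libraries and orange points the 3 Xbp1 siRNA libraries, with genes ordered by level within each role. Levels run from Dnajc1 at 4.17 FPKM to Hspa5 at 1132 FPKM in control libraries, and the spread within a group is small beside this range. Some genes lie closer together than their spread, as Pdia3 and P4hb do in control libraries.

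*Hspa5*, which encodes BiP, was the most abundant of the 38 genes and ranked 73 by level among all genes tested. It had 1131, 1129 and 1135 FPKM in the control libraries and 914, 916 and 943 FPKM with *Xbp1* siRNA. Every library with *Xbp1* siRNA was below every control library. *Hspa5* fell to 81.7% of the control, with a log2 fold change of −0.29 (standard error 0.027, limma, adjusted p = 1.46e-04). *Hsp90b1*, which encodes the ER Hsp90 GRP94, went the other way, from 395, 393 and 398 FPKM to 475, 478 and 466 FPKM. Its groups did not overlap either, and its log2 fold change was 0.26 (standard error 0.026, limma, adjusted p = 2.41e-04), or 0.46 after quantile normalization. *Hyou1*, the large Hsp70-related protein that serves as a nucleotide exchange factor of BiP, had 333, 326 and 336 FPKM with control siRNA and 319, 304 and 301 FPKM with *Xbp1* siRNA. Its log2 fold change of −0.11 was the smallest of the 3 (standard error 0.033, limma, adjusted p = 0.0367). Within each library, the level of *Hsp90b1* relative to that of *Hspa5* does not depend on a scaling factor shared by all genes. Quantile normalization is not such a factor and can change this ratio. This ratio was 0.349, 0.348 and 0.351 with control siRNA and became 0.520, 0.522 and 0.494. It was on average 1.47 times the control. The pair was chosen after the values were seen, so the ratio is a description with no test. After quantile normalization the log2 fold change of *Hspa5* was −0.03 (limma, adjusted p = 0.441) and that of *Hyou1* was 0.04 (limma, adjusted p = 0.441), so neither fall held there. *Hyou1* also missed the threshold with no filter (limma, adjusted p = 0.0503), with eBayes without trend (0.128), without control replicate 1, 2 or 3 (limma, adjusted p = 0.0768, 0.0635 and 0.0961) and without *Xbp1* siRNA replicate 2 or 3 (limma, adjusted p = 0.108 and 0.118).

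Of the 7 genes for co-chaperones and their partners, 3 fell and 2 rose, or 42.9% and 28.6%, beside 20.2% in each direction over all genes tested. The largest change was in *Dnajc10*, which encodes ERdj5, a J-domain protein with thioredoxin domains that reduces disulfide bonds of proteins bound for degradation. It had 37.7, 38.8 and 40.0 FPKM in control libraries and 23.4, 23.7 and 24.5 FPKM with *Xbp1* siRNA. The groups lay far apart relative to their spread, and the log2 fold change was −0.70 (standard error 0.044, limma, adjusted p = 2.53e-05). *Dnajc3*, which encodes the luminal J-domain protein p58IPK, fell from 15.8 ± 0.896 to 12.9 ± 0.267 FPKM (SD, n = 3 each; log2 fold change −0.29, limma, adjusted p = 0.00826). *Sil1*, an exchange factor of BiP, fell from 28.4 ± 1.14 to 25.2 ± 0.0840 FPKM (SD, n = 3 each; log2 fold change −0.17, limma, adjusted p = 0.0213). The call of *Sil1* was lost without control replicate 1 or 3 (limma, adjusted p = 0.0548 and 0.0688), without *Xbp1* siRNA replicate 1, 2 or 3 (0.0526, 0.0565 and 0.0644) and after quantile normalization (0.0680).

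*Dnajb11*, which encodes ERdj3, a J-domain protein that hands unfolded substrates to BiP, rose. It had 67.0, 66.8 and 65.0 FPKM with control siRNA and 75.9, 73.0 and 75.1 FPKM after silencing, and its log2 fold change was 0.17 (standard error 0.034, limma, adjusted p = 0.00582). *Dnajb9*, which encodes ERdj4, is often used as a target gene of spliced XBP1. It had 11.0, 9.64 and 11.3 FPKM in control libraries and 12.2, 12.5 and 12.6 FPKM with *Xbp1* siRNA, so all libraries with *Xbp1* siRNA were above the control libraries. Its log2 fold change was 0.23 (standard error 0.076, limma, adjusted p = 0.0486), just inside the threshold. This call was lost in 11 of the 14 alternatives. They were the fits without control replicate 1 or 2 (limma, adjusted p = 0.0662 and 0.123), without *Xbp1* siRNA replicate 1, 2 or 3 (0.0906, 0.113 and 0.123), with a pseudocount of 1, with no filter, with median-ratio scaling, with quantile normalization, with eBayes without trend and with a replicate block, the last 6 between 0.0508 and 0.0657. *Sdf2l1*, a partner of ERdj3, had 31.2 ± 2.75 and 34.2 ± 1.98 FPKM (SD, n = 3 each), with overlapping groups and limma's adjusted p = 0.194. *Dnajc1*, which encodes the membrane protein ERdj1, was the least abundant member, with a log2 fold change of 0.08 and a 95% interval from −0.36 to 0.53 (limma, adjusted p = 0.765). The ratio of *Dnajc10* to *Dnajb11* within a library was 0.586 ± 0.0265 with control siRNA and 0.319 ± 0.00976 with *Xbp1* siRNA (SD, n = 3 each). A scaling factor shared by all genes of a library does not change it.

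Of the 12 genes of the disulfide isomerase family, 4 fell, 5 rose and 3 did not pass. The share that fell, 33.3%, was near the 35.6% of genes with a mean of at least 30 FPKM, and the share that rose was 41.7%, beside 22.3% of those genes. *Txndc5*, which encodes the soluble isomerase ERp46, had the largest change of all 38 genes. Its levels were 255, 246 and 241 FPKM with control siRNA and 127, 125 and 130 FPKM with *Xbp1* siRNA. The libraries of each group lay close together, and the level with *Xbp1* siRNA was 51.6% of the control. The log2 fold change was −0.95 (standard error 0.034, limma, adjusted p = 2.55e-06), with a 95% interval from −1.03 to −0.88. Each fit that left out 1 library gave a value between −0.97 and −0.93.

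The other abundant family members differed less than *Txndc5*. *Pdia6* had 372 ± 7.66 and 374 ± 4.42 FPKM (SD, n = 3 each), a log2 fold change of 0.01 with a 95% interval from −0.06 to 0.07 (limma, adjusted p = 0.879). *Pdia4* had 72.1 ± 1.63 and 73.9 ± 1.82 FPKM (SD, n = 3 each; limma, adjusted p = 0.475). *P4hb*, which encodes the founding disulfide isomerase and also the β subunit of the collagen prolyl 4-hydroxylase, fell from 308, 300 and 306 FPKM to 265, 259 and 265 FPKM (log2 fold change −0.21, limma, adjusted p = 7.58e-04), though not after quantile normalization (−0.04, limma, adjusted p = 0.232), where *Pdia6* was higher (0.14, limma, adjusted p = 0.00240). *Pdia3*, which encodes ERp57, the isomerase bound to calnexin and calreticulin, rose from 306, 298 and 308 FPKM to 322, 330 and 329 FPKM (log2 fold change 0.11, limma, adjusted p = 0.0191). Its call was lost without control replicate 2 (limma, adjusted p = 0.0754) and without *Xbp1* siRNA replicate 2 or 3 (0.0617 and 0.0655) and with eBayes without trend (0.0952), and its log2 fold change was 0.26 after quantile normalization. Within a library, *Txndc5* stood at 0.665 ± 0.00515 of the level of *Pdia6* with control siRNA and at 0.341 ± 0.00440 with *Xbp1* siRNA (SD, n = 3 each).

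Among the less abundant members, *Erp44*, which retrieves unassembled proteins from the early secretory pathway, rose from 32.5, 33.3 and 30.4 FPKM to 43.3, 43.6 and 43.2 FPKM. The groups were well apart, with a log2 fold change of 0.44 (standard error 0.046, limma, adjusted p = 2.83e-04). *Pdia5* rose by 0.20 and *Erp29*, a chaperone that lacks the usual pair of active cysteines, by 0.23 on the log2 scale (limma, adjusted p = 0.00950 and 0.0133). *Txndc11* had 18.2 ± 0.508 and 17.1 ± 1.80 FPKM (SD, n = 3 each), with overlapping groups and limma's adjusted p = 0.360. The TMX genes, for membrane-bound members, differed in direction. *Tmx3* rose from 40.2, 40.9 and 44.2 FPKM to 56.7, 64.6 and 59.1 FPKM (log2 fold change 0.52, limma, adjusted p = 4.47e-04); like *Hsp90b1* and *Uggt1*, it overlaps another annotated gene, which makes its value less certain. *Tmx4* fell from 12.2, 13.4 and 12.1 FPKM to 9.64, 9.22 and 9.57 FPKM (log2 fold change −0.40, limma, adjusted p = 0.00283), and *Tmx1* fell from 31.2 ± 3.30 to 25.5 ± 1.88 FPKM (SD, n = 3 each; log2 fold change −0.29, limma, adjusted p = 0.0335). The call of *Tmx1* was lost without control replicate 3 (limma, adjusted p = 0.0751), without *Xbp1* siRNA replicate 2 or 3 (0.0659 and 0.105), after quantile normalization (0.0616), with eBayes without trend (0.0782) and with a replicate block (0.0718). The ratio of *Tmx3* to *Tmx4* within a library was 1.90 times the control.

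**Figure D3:**
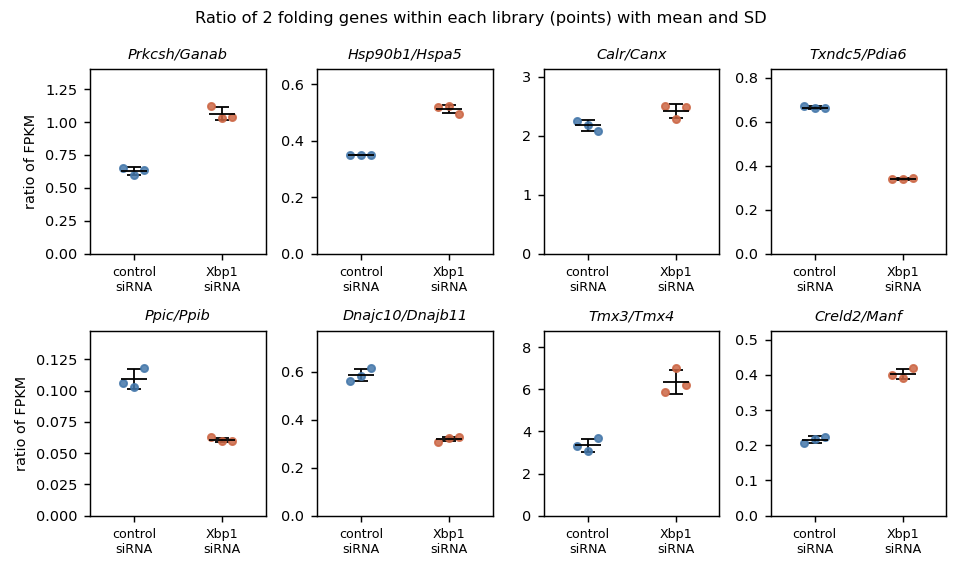
Ratio of the FPKM of the named genes within each library (y axis, from 0), with the 3 control siRNA libraries in blue, the 3 Xbp1 siRNA libraries in orange, and the mean and SD in black. The 8 ratios were chosen after the values of the genes were known and are a description with no test; the ratio of Prkcsh to Ganab lies below 1 in every control library and above 1 in every Xbp1 siRNA library.

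The genes of the glycoprotein folding cycle showed 3 increases and 1 decrease among 6, beside 20.2% in each direction over all genes tested. *Prkcsh* and *Ganab* encode the β and α subunits of glucosidase II, which trims glucose from the sugar chain, and their mRNAs differed in direction. *Prkcsh* had 102, 91.3 and 98.0 FPKM with control siRNA and 159, 146 and 143 FPKM with *Xbp1* siRNA, the largest increase of the 38 genes (log2 fold change 0.62, standard error 0.057, limma, adjusted p = 1.40e-04). *Ganab* had 156, 153 and 153 FPKM and then 142, 141 and 138 FPKM (log2 fold change −0.14, standard error 0.029, limma, adjusted p = 0.00801). The β to α ratio was therefore 0.652, 0.595 and 0.639 in the control libraries and became 1.12, 1.03 and 1.04. It was below 1 in every control library and above 1 in every library with *Xbp1* siRNA, on average 1.69 times the control.

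*Uggt1*, which encodes the enzyme that puts glucose back on glycoproteins that are not yet folded, rose from 20.9, 22.4 and 22.9 FPKM to 31.3, 33.1 and 30.6 FPKM (log2 fold change 0.52, standard error 0.055, limma, adjusted p = 2.88e-04). *Calr*, for the soluble lectin chaperone calreticulin, rose from 615, 604 and 601 FPKM to 711, 704 and 736 FPKM (log2 fold change 0.24, standard error 0.029, limma, adjusted p = 5.51e-04; 0.57 after quantile normalization). Both genes had every library with *Xbp1* siRNA above every control library. *Canx*, for the membrane-bound lectin chaperone calnexin, had 279 ± 8.36 and 296 ± 11.6 FPKM (SD, n = 3 each) with overlapping groups (log2 fold change 0.08, limma, adjusted p = 0.127). *Mogs*, for glucosidase I, which removes the first glucose, had a log2 fold change of −0.07 with a 95% interval from −0.18 to 0.04 (limma, adjusted p = 0.301). After quantile normalization *Ganab* had a log2 fold change of −0.03 (limma, adjusted p = 0.382), and *Canx* was higher with 0.23 (limma, adjusted p = 0.00450).

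The 8 prolyl isomerases held 3 genes that rose, 2 that fell and 3 that did not pass. These are 37.5% higher and 25.0% lower, beside 20.2% in each direction over all genes tested. Of genes with a mean of at least 30 FPKM, 22.3% rose and 35.6% fell. *Ppic*, which encodes cyclophilin C, had 46.4, 48.3 and 52.4 FPKM with control siRNA and 30.2, 28.4 and 28.4 FPKM with *Xbp1* siRNA. The level fell to 59.1% of the control, with a log2 fold change of −0.76 (standard error 0.057, limma, adjusted p = 5.56e-05). The related *Ppib*, for cyclophilin B, was more abundant, with 451 ± 15.8 and 478 ± 4.58 FPKM (SD, n = 3 each). Its groups did not overlap, but its log2 fold change of 0.08 did not pass (limma, adjusted p = 0.0820). It passed without control replicate 2 (log2 fold change 0.11, limma, adjusted p = 0.0408) and after quantile normalization (0.33, limma, adjusted p = 2.45e-04). The ratio of *Ppic* to *Ppib* within a library was 0.109 ± 0.00794 and then 0.0607 ± 0.00169 (SD, n = 3 each).

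In the FKBP family the 3 most abundant members rose. *Fkbp9* had 251, 247 and 238 FPKM and then 318, 316 and 313 FPKM (log2 fold change 0.36, standard error 0.031, limma, adjusted p = 9.77e-05). *Fkbp10*, which encodes FKBP65, a chaperone of procollagen, had 190, 180 and 176 FPKM and then 238, 231 and 234 FPKM (log2 fold change 0.37, standard error 0.037, limma, adjusted p = 2.37e-04). *Fkbp11* rose from 207 ± 16.9 to 245 ± 1.39 FPKM (SD, n = 3 each; log2 fold change 0.25, limma, adjusted p = 0.00977; 0.40 after quantile normalization). In all 3 genes the lowest library with *Xbp1* siRNA was above the highest control library. *Fkbp2*, a small member of the family, fell from 91.6, 81.4 and 76.5 FPKM to 63.9, 57.7 and 56.5 FPKM (log2 fold change −0.48, standard error 0.075, limma, adjusted p = 0.00180). *Fkbp7* and *Fkbp14* were the least abundant of these FKBP genes, at 6.54 ± 0.360 and 17.9 ± 1.93 FPKM with control siRNA (SD, n = 3 each). They did not pass (limma, adjusted p = 0.112 and 0.662).

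*Creld2* and *Manf* encode small luminal proteins that are known to be induced and secreted under ER stress, and they moved in opposite directions. *Creld2* rose from 60.8, 62.7 and 60.2 FPKM to 88.4, 88.1 and 89.0 FPKM (log2 fold change 0.53, standard error 0.033, limma, adjusted p = 2.38e-05). *Manf* fell from 295, 287 and 268 FPKM to 222, 226 and 212 FPKM (log2 fold change −0.37, standard error 0.044, limma, adjusted p = 5.54e-04; −0.21 after quantile normalization). Neither gene had overlapping groups. The ratio of *Creld2* to *Manf* was 0.206, 0.218 and 0.224 with control siRNA and 0.399, 0.390 and 0.419 after silencing, on average 1.86 times the control.

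Seen by size, 7 of the 38 genes passed the test with a change of at least 0.5 on the log2 scale, or 18.4%, close to the 17.2% of all genes tested. At a mean of at least 30 FPKM it was 6 of 27 folding genes, or 22.2%, beside 13.2% of all genes at that level. *Txndc5*, *Ppic* and *Dnajc10* were lower, and *Prkcsh*, *Creld2*, *Tmx3* and *Uggt1* higher. Each of these 7 genes kept an adjusted p under 0.05 (limma) and its direction in all 14 alternatives run, though the size was 0.47 for *Tmx3* without *Xbp1* siRNA replicate 2, and 0.48 and 0.49 for *Uggt1* without control replicate 1 and without *Xbp1* siRNA replicate 2. The median size of the change, without its sign, was 0.24 on the log2 scale over the 38 genes and 0.27 over all genes tested. At a mean of at least 30 FPKM it was 0.25 over 27 folding genes and 0.19 over 3785 genes. The standard deviation of the log2 fold changes was 0.37 over the 38 genes and 0.62 over all genes tested, and 0.40 and 0.39 at that level.

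**Figure D4:**
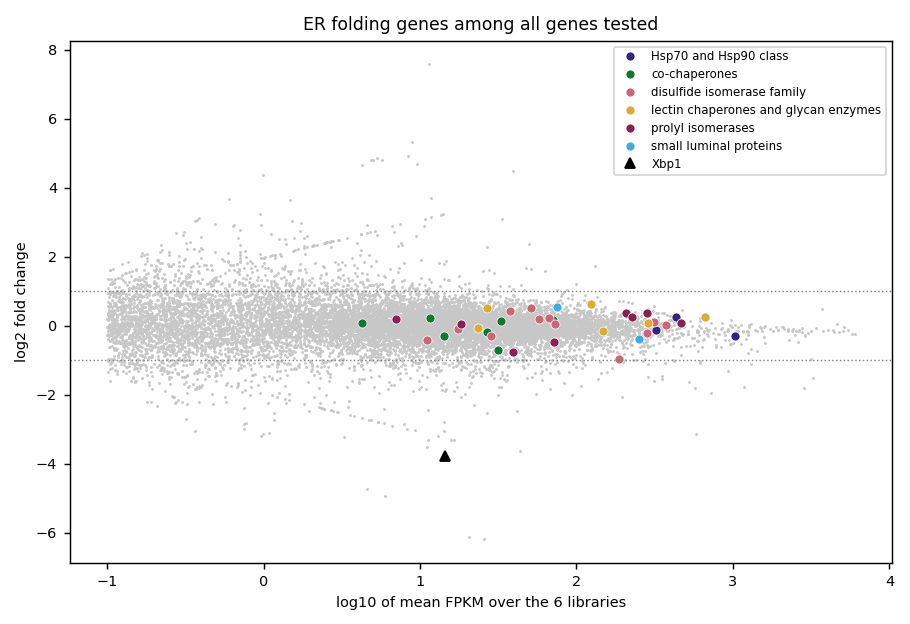
Log2 fold change (y axis) against the log10 of the mean FPKM over the 6 libraries (x axis) for the 14361 genes tested (grey), with the 38 ER folding genes coloured by role and Xbp1 as a triangle; dotted lines mark 2-fold. The folding genes lie mostly at the abundant end and all between the dotted lines, while Xbp1 lies at −3.78.

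Genes that work beside the folding enzymes were read from lists chosen by function. Of 15 tested genes for ER oxidation and redox partners, 8 rose, 2 fell and 5 did not pass, beside 20.2% higher and 20.2% lower of all genes tested, with a median log2 fold change of 0.23 (0.01 over all genes). *Ero1a* and *Ero1b* encode the oxidases that recharge the disulfide isomerases. *Ero1a* rose from 24.2 ± 2.04 to 28.9 ± 2.16 FPKM (log2 fold change 0.26, limma, adjusted p = 0.0368) and *Ero1b* fell from 5.35 ± 0.163 to 3.90 ± 0.227 FPKM (−0.45, limma, adjusted p = 0.00709; SD, n = 3 each). The call of *Ero1a* was lost without control replicate 1 or 2 (limma, adjusted p = 0.102 and 0.0940) and without *Xbp1* siRNA replicate 1 or 2 (0.113 and 0.104), with a replicate block (0.0784) and with eBayes without trend (0.0809). *Prdx4* and *Gpx8*, whose products use peroxide in the ER, rose by 0.48 and 0.45 on the log2 scale (limma, adjusted p = 9.21e-05 and 2.84e-04). *Qsox2*, a sulfhydryl oxidase, rose by 0.75 (limma, adjusted p = 3.99e-05) and *Txndc16* by 0.85 (limma, adjusted p = 5.13e-04). *Selenom* and *Txndc12* rose by 0.49 and 0.23, and *Tmx2* fell by 0.28 on the log2 scale (limma, adjusted p = 4.68e-04, 0.00350 and 8.64e-04). *Vkorc1* had 0.54 (limma, adjusted p = 0.0280), a call lost without control replicate 1 or 3 (0.0713 and 0.0653) and without *Xbp1* siRNA replicate 1 or 2 (0.0870 and 0.0759) and with eBayes without trend (0.0745).

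Of 13 genes for the folding and modification of collagen, 7 rose, 2 fell and 4 did not pass, with a median log2 fold change of 0.24, beside the same 20.2% in each direction over all genes. *Serpinh1*, which encodes the collagen chaperone HSP47, fell from 481, 463 and 470 FPKM to 368, 343 and 347 FPKM (log2 fold change −0.42, limma, adjusted p = 9.66e-05). *Crtap*, a partner of *Ppib* in prolyl 3-hydroxylation, rose from 57.1, 57.2 and 55.6 FPKM to 106, 98.5 and 103 FPKM (log2 fold change 0.85, limma, adjusted p = 6.09e-06). *Plod2*, a lysyl hydroxylase, rose from 18.1 ± 1.17 to 32.7 ± 2.45 FPKM (SD, n = 3 each; log2 fold change 0.85, limma, adjusted p = 1.08e-04). The α subunits *P4ha2* and *P4ha3*, which pair with the product of *P4hb*, rose by 0.43 and 0.58 on the log2 scale (limma, adjusted p = 0.00486 and 9.35e-04). *P4ha1*, the most abundant α subunit, had 45.8 ± 0.900 and 48.6 ± 0.462 FPKM (SD, n = 3 each) and did not pass (0.09, limma, adjusted p = 0.0982), though it did after quantile normalization (0.14, limma, adjusted p = 0.0151). *P3h1*, *P3h4* and *Mia3* rose by 0.24, 0.26 and 0.34 and *P3h3* fell by 0.40 on the log2 scale (limma, adjusted p = 0.00770, 0.0126, 0.00154 and 0.00157).

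The ER genes were set beside relatives that act in the cytosol or in mitochondria. *Hsp90ab1*, *Hspe1*, *Dnajb6*, *Hspbp1* and *Ppid* were listed but not matched. Of the 19 genes matched and tested, 8 fell, 3 rose and 8 did not pass, with a median log2 fold change of −0.11. Over all genes tested 20.2% fell and 20.2% rose, and 35.6% and 22.3% of those with a mean of at least 30 FPKM. The mitochondrial Hsp70 gene *Hspa9* fell by 0.29 on the log2 scale (limma, adjusted p = 4.29e-04), beside −0.29 for *Hspa5*, whose fall did not hold after quantile normalization. The cytosolic *Hspa8* had −0.07 (limma, adjusted p = 0.0875), and 0.05 after quantile normalization. Of the Hsp90 genes matched, the cytosolic *Hsp90aa1* rose by 0.12 and the mitochondrial *Trap1* by 0.38 on the log2 scale (limma, adjusted p = 0.00853 and 1.99e-04), beside 0.26 for *Hsp90b1*. The call of *Hsp90aa1* was lost with eBayes without trend (limma, adjusted p = 0.0524). The cytosolic FKBP genes *Fkbp1a* and *Fkbp5* fell by 0.39 and 0.82 on the log2 scale (limma, adjusted p = 3.33e-05 and 2.14e-05). The cytosolic *Fkbp4* rose by 0.14 (limma, adjusted p = 0.0192). Its call was lost without control replicate 2 or 3 (limma, adjusted p = 0.0636 and 0.0501) and without *Xbp1* siRNA replicate 3 (0.0613). It was also lost with eBayes without trend (limma, adjusted p = 0.0793). *Hspd1*, the mitochondrial Hsp60, fell by 0.59, *Dnaja1* by 0.30 and *Bag3* by 0.42 on the log2 scale (limma, adjusted p = 2.28e-05, 0.00876 and 0.00112). The thioredoxin reductase gene *Txnrd1* fell by 0.73 (limma, adjusted p = 7.28e-06) and *Txn*, for thioredoxin, by 0.29 (limma, adjusted p = 3.10e-04), the latter with 0.03 after quantile normalization (limma, adjusted p = 0.606). Differences between the compartments were not tested.

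**Figure D5:**
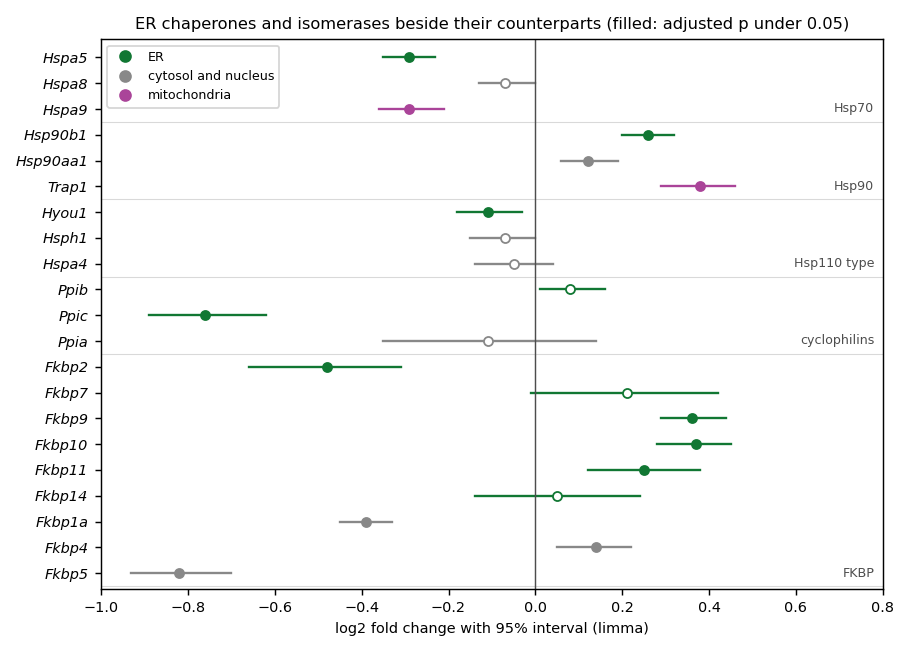
Log2 fold change with 95% interval (x axis, limma) of ER chaperones and prolyl isomerases (green) and of related genes of the cytosol and nucleus (grey) and of mitochondria (purple), by family; filled points have an adjusted p under 0.05. The 3 Hsp90 genes shown lie to the right of 0 and the 3 Hsp70 genes shown to the left, with that of Hspa8 not past the threshold. After quantile normalization Hspa8, Hspa4, Ppia and Hyou1 changed sign and Hspa5 was not called. Hsp90ab1 was not matched and is not shown.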

How the data were processed

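RNA-Seq of CHO-T cells with control siRNA or *Xbp1* siRNA was compared, with 3 libraries each, grouped by their titles. The authors deposited FPKM values, 1 library per file, from stranded mRNA libraries. HISAT2 2.1.0 and Cuffdiff 2.2.1 are named in the submitters' processing notes; genome build and annotation are not given in the sources used here, so no coordinates are given. A RefSeq gene table holds all 38 symbols (assembly CriGri-PICRH-1.0, used for names only), where 7 overlap another gene (*Hsp90b1*, *Dnajc1*, *Sil1*, *Pdia6*, *Txndc11*, *Tmx3* and *Uggt1*); whether counting used the strand is not given in the sources used here, so the values of these 7 are less certain.

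Since FPKM values are not counts, the DESeq2 model of the study's methods was not used. Log2(FPKM + 0.1) values of the 14361 genes with a mean of at least 0.1 FPKM were fitted with limma 3.58.1 in R 4.3.3 (eBayes with trend), with Benjamini-Hochberg adjustment over all of them; folds of weak genes are understated. The call was an adjusted p under 0.05, with 2-fold as a second limit. All members are named; of the other lists, genes past the test are named, and *Hspa8* and *P4ha1* were added after their values were seen. The members and lists were chosen with earlier results of these data known, and the ratios within libraries after the values were seen. As alternatives, the pseudocount was set to 1 or 0.01, the filter to 1 FPKM or none, and the fit was repeated with median-ratio scaling, quantile normalization, eBayes without trend, the replicate number as a block, and leaving out each library. Replicates within a group correlated across genes at 0.966 to 0.972. The depth of the libraries relative to control replicate 1 was read from the steps of values under 0.5 FPKM. Figures were drawn with matplotlib 3.10.9. Protein and promoter sequences were not used here.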

Additional observations from a re-analysis of the deposited data

How the results depend on the processing

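Over 14 alternatives, 532 values of single genes were recomputed, and 25 of the 38 genes kept their direction and their side of the threshold in all. With the direction kept, 37 values lost the call and 4 gained it, and 4 values had the opposite sign. The size of the change was not part of these counts. Of the genes called, 23 were called in every fit that left out 1 library. Those of opposite sign were *Hyou1* after quantile normalization (0.04), *Dnajc1* without control replicate 2 (−0.09), *Pdia6* without control replicate 3 (−0.01) and *Fkbp14* without control replicate 1 (−0.03); except for *Hyou1*, none of these genes was called. Over the fits without 1 library, *Dnajc1* lay between −0.09 and 0.29, *Pdia6* between −0.01 and 0.02 and *Fkbp14* between −0.03 and 0.13. Quantile normalization gave 7 genes lower in place of 13, with 17 higher; it moved the median of the 38 genes from 0.08 to 0.15 and that of all genes with a mean of at least 30 FPKM from −0.05 to 0.03. The median of the 38 genes was 0.07 with a pseudocount of 1 and lay between 0.06 and 0.09 when 1 library was left out. With eBayes without trend, 11 of the 38 genes were lower and 13 higher, 6 of the redox partners were higher in place of 8 (without *Ero1a* and *Vkorc1*), and 1 of the cytosolic and mitochondrial relatives in place of 3, the calls of *Hsp90aa1* and *Fkbp4* being lost. A replicate block gave 12 genes lower and 14 higher, the calls of *Tmx1* and *Dnajb9* being lost. Among the redox partners that of *Ero1a* was lost and *Qsox1* was called higher (limma, adjusted p = 0.0376), so 8 stayed higher. Replicate numbers were not treated as pairing libraries: deviations of same-numbered libraries from their group means correlated across genes between −0.029 and −0.012. The depth known is only relative, so no counting error is given for single values, and *Dnajc1*, with the lowest level, had the widest interval among the 38 genes.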
